A study of Saccharomyces cerevisiae with 24 samples.

Results

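The genes described here are 48 nuclear genes of the budding yeast Saccharomyces cerevisiae that encode enzymes of the tricarboxylic acid (TCA) cycle, subunits of the respiratory chain and of the mitochondrial ATP synthase, and the transcription activator HAP4. They were chosen by name as a list of symbols, with no measured value in the rule but with earlier results of these data known. Each was found under 1 probe set of the array. They are 48 of the 5449 genes with a probe set and 48 of the 5395 genes tested, and all 48 were above background on each of the 24 arrays. By role, 10 belong to the TCA cycle, 4 to complex II, 3 are NADH dehydrogenases, 9 belong to complex III, 3 are the cytochromes c and the lactate dehydrogenase CYB2, 7 belong to complex IV, 11 to the ATP synthase, and HAP4 is the regulator. Subunits encoded by mitochondrial DNA were not analysed here.

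Total RNA was measured on 24 Affymetrix yeast arrays from 4 strains: the double deletion of pbf1 and pbf2, the pbf2 deletion, the pbf1 deletion, and the wild type BY4741, a laboratory strain of mating type a. Each strain was grown at 25 °C in triplicate. One part of a culture was heated to 37 °C for 20 min and the other was taken at 0 min, which gives 8 groups of 3 arrays. The pbf1 gene is TOD6 (YBL054W) and the pbf2 gene is DOT6 (YER088C). They encode related Myb-type repressors known for binding upstream of ribosome biogenesis genes, and the arrays ask which heat shock changes differ when they are missing. The labels name neither the parent strain nor the clones of the deletions, nor a growth medium. The number of arrays limits the precision, since each group has 3.

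In mitochondria the TCA cycle oxidises acetyl-CoA and passes electrons, as NADH and through succinate dehydrogenase, to the respiratory chain. The chain of S. cerevisiae has no proton-pumping complex I. Instead, single-subunit NADH dehydrogenases on either face of the inner membrane feed ubiquinone, complex III passes the electrons to cytochrome c, and complex IV passes them to oxygen, while the ATP synthase uses the resulting proton gradient. Many of these genes are known to be repressed by glucose and activated by the HAP2/3/4/5 complex, in which HAP4 is the regulated activating subunit.

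The median signal of all genes lay between 453 and 572 over the arrays, and 96.7% to 99.1% of the genes were above background on an array. TOD6 and DOT6 were at background on each array of their deletions, except DOT6 on 1 array of the double deletion at 0 min with a signal of 11.9. In the wild type, TOD6 had a geometric mean signal of 162 at 20 min and 455 at 0 min, and DOT6 had 889 and 855. URA3, a marker gene that BY4741 lacks, had 815 at 20 min and 1789 at 0 min in the double deletion and was at background in the other 3 strains. Its presence moves with each difference given for the double deletion, and its part in them was not tested. Of the mating type markers, the a-cell receptor gene STE2 had group means of 863 to 1921 at 20 min and 4904 to 5422 at 0 min. The alpha-cell pheromone gene MF(ALPHA)1 was above background on 2 of 24 arrays. The other alpha-cell genes were not silent, against a background of 9.02 to 11.6. Their group means were 13.3 to 26.2 for MF(ALPHA)2, 22.6 to 106 for STE3 and 127 to 196 for SAG1. The log2 ratio of the 3′ over the 5′ control probe sets of TDH1, a sign of RNA quality, averaged 0.27 to 0.42 per group at 20 min and 0.65 to 1.03 at 0 min, and it was highest in the double deletion at both times. That of ACT1 averaged 0.39 to 0.47 at 20 min and 0.48 to 0.51 at 0 min. That of RIP1, itself a member, averaged 0.29 in the pbf2 deletion and 0.10 to 0.13 in the other 3 strains at 20 min, and 0.10 to 0.18 at 0 min. The part of these ratios in the results was not tested.

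Most of the respiratory and TCA cycle genes rose in the wild type after 20 min at 37 °C. Of the 48, 38 were higher at 20 min than at 0 min, 3 were lower and 7 did not pass, by limma with Benjamini-Hochberg adjustment over all tested genes and a threshold of 0.05. Over all genes tested, 51% were called higher and 29.7% lower in that comparison. The members' median log2 change was 0.75, against 0.27 over all genes, on arrays whose signals the authors had scaled to a common mean. In such bulk samples a change in the RNA of all cells and a change in the share of cells that hold it cannot be told apart. The 20 min arrays lay wholly above the 0 min arrays for 38 members, wholly below for CYC1, ATP5 and ATP1, and overlapped for 7. This separation was not counted over all genes, so it does not set the members apart from them.

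The size of the change differed widely between roles and was small in complex IV and the ATP synthase. The median log2 change in the wild type was 0.90 for the TCA cycle, 1.22 for complex II, 1.45 for the NADH dehydrogenases, 0.99 for complex III, 2.95 for cytochrome c and CYB2, 0.23 for complex IV, and 0.40 for the ATP synthase. The SD over genes ranged from 0.22 in complex II to 2.61 in cytochrome c and CYB2. With 3 genes, the median of cytochrome c and CYB2 is the value of CYB2, between CYC1, which fell, and CYC7. That of the NADH dehydrogenases is the value of NDI1. All 4 genes of complex II and all 9 of complex III were called higher, where 51% of all genes were. The TCA cycle had 9 of 10 called higher and the ATP synthase 8 of 11. Complex IV had 4 of 7, which is near the share of all genes. These directions are relative to the scaling. With the arrays scaled on hybridisation controls, the complex IV median in the wild type was -0.04, and with scaling on spiked-in control RNAs it was -0.50 and that of the ATP synthase -0.34. The spiked-in controls lowered the median of all genes to -0.47, and with them 5 members were called higher and 6 lower in the wild type. The share of all genes called on that scaling is not given here. Their mean log2 signal ranged from 4.10 to 6.40 over the arrays, whereas that of the hybridisation controls ranged from 9.18 to 9.80.

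**Figure D1:**
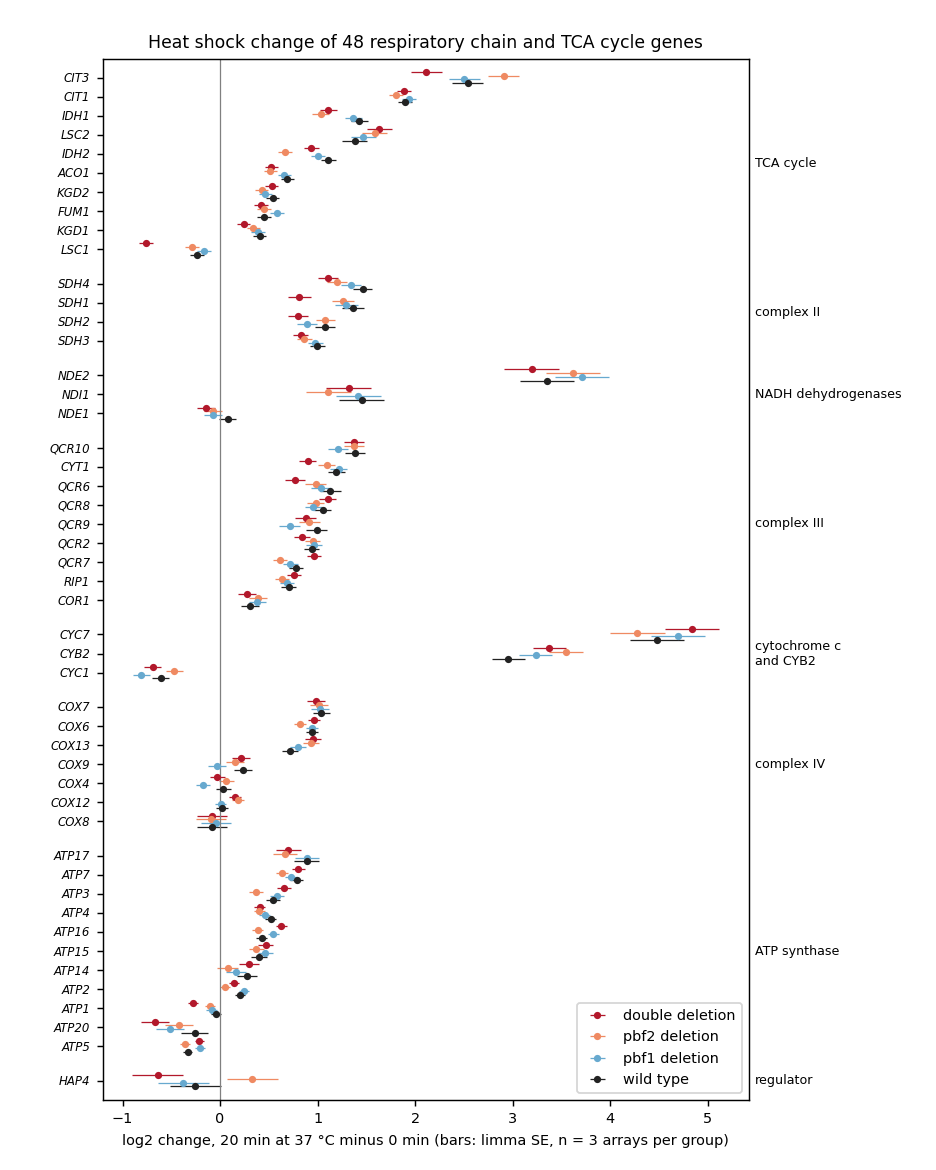
Log2 change in signal, 20 min minus 0 min on the horizontal axis, of each of the 48 genes, which run down the page by role, with a point per strain and bars for the standard error of limma (n = 3 arrays per group). CYC7 lies farthest to the right in each strain at 4.28 to 4.84, and the genes of complex IV and the ATP synthase lie nearer to 0, on the deposited scaling, where scaling on spiked-in controls puts the ATP synthase median of each strain below 0.

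In the TCA cycle, the citrate synthase genes CIT3 and CIT1 changed most, followed by IDH1, LSC2 and IDH2. The mitochondrial citrate synthase gene CIT1 (YNR001C) had signals of 9136, 9283 and 9042 in the wild type at 20 min, against 2328, 2489.6 and 2581 at 0 min. This is a log2 change of 1.89 ± 0.07 (SE, n = 3 each, limma adjusted p = 1.84e-15). CIT3 (YPR001W), which encodes a citrate and methylcitrate synthase, had signals of 126, 101 and 95.2 at 20 min, against 17.4, 18.3 and 19.4 at 0 min. The 0 min signals of CIT3 were low, with backgrounds of 9.40, 10.1 and 10.9 on those arrays. The 20 min arrays stood above all 0 min arrays for both genes, and the change of CIT3 was 2.54 ± 0.16 (limma adjusted p = 4.92e-12). IDH1 and IDH2, the subunits of the NAD-dependent isocitrate dehydrogenase, rose by 1.43 and 1.11 on the log2 scale. Smaller rises were measured for the aconitase gene ACO1 (0.69), the 2-oxoglutarate dehydrogenase genes KGD1 (0.40) and KGD2 (0.54), and the fumarase gene FUM1 (0.45).

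The subunits of succinyl-CoA ligase moved in opposite directions. LSC1 (YOR142W), the alpha subunit, had signals of 2569, 2052 and 1986 in the wild type at 20 min, against 2475, 2579 and 2671 at 0 min. The groups overlapped through 1 array at 20 min, and the change was -0.23 ± 0.07 (limma adjusted p = 0.0053). LSC2 (YGR244C), the beta subunit, had signals of 1651, 1565 and 1263 at 20 min, against 541, 592 and 574 at 0 min, without overlap. It rose by 1.38 on the log2 scale (limma adjusted p = 2.35e-09). LSC1 was the one TCA cycle member that fell in the wild type, and it was called lower and LSC2 higher in all 4 strains. The call of LSC1 in the pbf1 deletion (-0.16, limma adjusted p = 0.0435) was lost without any of 5 of its 6 arrays, with adjusted p up to 0.166. In the authors' deposited table LSC1 had log2 ratios of -0.70 in the double, -0.14 in the pbf2 and -0.03 in the pbf1 deletion, and -0.14 in the wild type with a rate of 0.226.

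Complex II, the succinate dehydrogenase that belongs to both the cycle and the chain, changed as a group of similar size. The changes in the wild type lay between 0.99 ± 0.08 for the membrane anchor gene SDH3 (YKL141W, limma adjusted p = 1.27e-10) and 1.46 ± 0.10 for the anchor gene SDH4 (YDR178W, limma adjusted p = 2.72e-11). SDH4 had signals of 2557, 2658 and 2767 at 20 min, against 922, 904 and 1082 at 0 min. SDH3 had signals of 2624, 2824 and 2867 at 20 min, against 1371, 1389.6 and 1410.4 at 0 min. Neither gene's groups overlapped. The flavoprotein gene SDH1 rose by 1.36 and the iron-sulfur subunit gene SDH2 by 1.08.

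Of the NADH dehydrogenases, the external enzyme genes NDE1 and NDE2 differed most from each other. NDE2 (YDL085W) had signals of 331, 304 and 210.03 in the wild type at 20 min, against 23.9, 36.7 and 22.6 at 0 min, a change of 3.35 ± 0.28 (limma adjusted p = 4.5e-10). Its 0 min signals were low, with backgrounds of 9.40, 10.1 and 10.9 on those arrays. NDE1 (YMR145C) had signals of 2344, 2079.6 and 2218 at 20 min, against 2159, 2073 and 2061 at 0 min. The groups of NDE1 overlapped, those of NDE2 did not, and the change of NDE1 was 0.08 ± 0.09 (limma adjusted p = 0.446). The internal enzyme gene NDI1 (YML120C) had signals of 524, 774 and 945 at 20 min, against 226, 260.4 and 319 at 0 min. It rose by 1.45 ± 0.23 (limma adjusted p = 7.75e-06), and its standard error was also among the 4 largest, with those of NDE2, CYC7 and HAP4.

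Complex III, the cytochrome bc1 complex, rose in all its 9 measured genes. QCR10 (YHR001W-A), a small subunit, had signals of 1968, 2379 and 2399.8 in the wild type at 20 min, against 898, 795 and 893 at 0 min, and changed by 1.38 ± 0.10 (limma adjusted p = 1.03e-10). The core subunit gene COR1 (YBL045C) had signals of 1989.5, 1595 and 1921 at 20 min, against 1534, 1412 and 1490.1 at 0 min. It changed least, by 0.31 ± 0.09 (limma adjusted p = 0.00378), although its groups did not overlap. The other core subunit gene, QCR2, rose by 0.94, the cytochrome c1 gene CYT1 by 1.19, and QCR6 to QCR9 by 0.78 to 1.13. RIP1, the Rieske iron-sulfur protein gene, rose by 0.70, and the array holds 3 further control probe sets for it. These changed by 0.65 at the 3′ end, 0.91 in the middle and 0.66 at the 5′ end in the wild type, a range of changes that holds the value of the gene's own probe set.

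Cytochrome c carries electrons between complexes III and IV and is encoded by a pair of isoform genes. CYC7 (YEL039C), iso-2-cytochrome c, had signals of 2967, 3079.6 and 3090.1 in the wild type at 20 min, against 93.8, 125 and 218 at 0 min. The 20 min arrays were close together while the 0 min arrays were spread, and the change was 4.48 ± 0.28 (22.2-fold, limma adjusted p = 3.83e-12). CYC1 (YJR048W), iso-1-cytochrome c, had signals of 538, 484 and 442 at 20 min, against 711, 777 and 739.9 at 0 min. It fell without overlap, by 0.61 on the log2 scale (-0.61 ± 0.09, limma adjusted p = 1.86e-06). CYB2 (YML054C), the L-lactate dehydrogenase that reduces cytochrome c, had signals of 191, 197 and 165 at 20 min, against 25.0, 23.3 and 23.04 at 0 min, and rose by 2.95. The 0 min signals of CYB2 were low, with backgrounds of 9.40, 10.1 and 10.9 on those arrays.

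**Figure D2:**
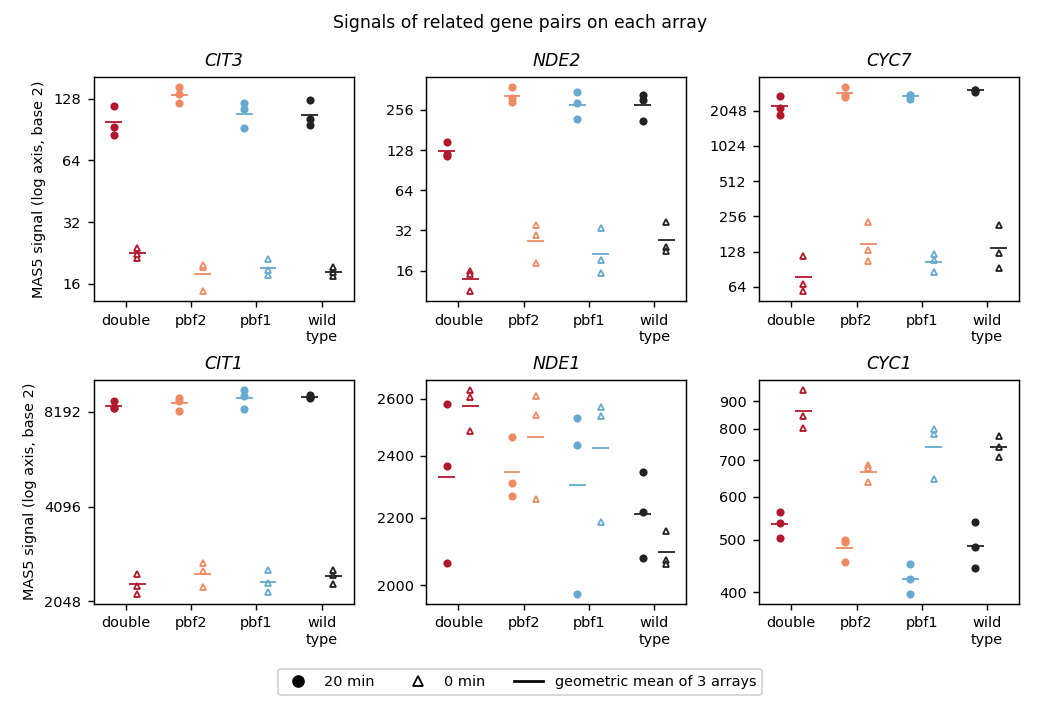
MAS5 signal on log axes of CIT3, NDE2 and CYC7 (upper row) and CIT1, NDE1 and CYC1 (lower row), with circles for arrays at 20 min, triangles for arrays at 0 min and a bar at the geometric mean of 3 arrays, for the double, pbf2 and pbf1 deletions and the wild type. CIT3, NDE2, CYC7 and CIT1 were higher at 20 min on each array of each strain, CYC1 was lower, and the groups of NDE1 overlapped in each strain.

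Complex IV, the cytochrome c oxidase, changed little in 4 of the 7 nuclear genes listed for it. The nuclear isoform genes of its subunit V, COX5A and COX5B, are not among the 7 and are given further below. COX7 (YMR256C) had signals of 2654, 2736 and 2958 in the wild type at 20 min, against 1228.5, 1459 and 1381 at 0 min, and changed by 1.04 ± 0.09 (limma adjusted p = 1.09e-09). COX6 and COX13 rose by 0.94 and 0.71. COX8 (YLR395C) had signals of 1414, 1759 and 1509 at 20 min, against 1690.04, 1940.1 and 1368 at 0 min. Its groups overlapped, and the change was -0.09 ± 0.15 (limma adjusted p = 0.613). COX9 rose by 0.23 (limma adjusted p = 0.0226), and COX4 and COX12 changed by 0.03 and 0.02 and did not pass. A set of 3 genes therefore changed by 0.71 or more and the other 4 by 0.23 or less.

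The 11 genes of the ATP synthase spanned changes of both directions. ATP17 (YDR377W), a membrane sector subunit, had signals of 2050.4, 2263 and 2696 in the wild type at 20 min, against 1292, 1308 and 1174 at 0 min, and rose by 0.89 ± 0.12 (limma adjusted p = 1.31e-06). ATP5 (YDR298C), the stalk subunit known as OSCP, had signals of 1735, 1832 and 1917 at 20 min, against 2357, 2213 and 2339 at 0 min. It fell without overlap (-0.33 ± 0.05, limma adjusted p = 3.16e-06). The catalytic beta subunit gene ATP2 rose by 0.20, while the alpha subunit gene ATP1 changed by -0.05 and did not pass. Of the central stalk genes, ATP3 rose by 0.54, ATP16 by 0.43 and ATP15 by 0.40. ATP7, ATP4 and ATP14, of the peripheral stalk, rose by 0.78, 0.52 and 0.28, and ATP20 changed by -0.26 and did not pass (limma adjusted p = 0.0961).

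HAP4 (YKL109W), the regulated subunit of the HAP complex, had signals of 724, 582 and 445 in the wild type at 20 min, against 522, 696 and 872 at 0 min. The groups overlapped over most of their range, and the change was -0.25 ± 0.26 (limma adjusted p = 0.371). Its standard error was among the 4 largest of the members. The 3 arrays of a group differed in a way that recurred between strains.

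In the deletions, the heat shock changes of these genes had the same general form. In the double deletion 39 members were higher and 6 lower at 20 min, where 48.5% and 30.9% of all genes were called. The pbf2 deletion had 36 higher and 4 lower, where 48.4% and 30.1% of all genes were called, and the pbf1 deletion had 36 higher and 5 lower, where 51.2% and 30.4% were called. The members' median change was 0.76 in the double, 0.63 in the pbf2 and 0.72 in the pbf1 deletion, against 0.21, 0.21 and 0.27 over all genes. In the 4 strains, 35 members were called higher in each and 3, CYC1, ATP5 and LSC1, lower in each. COX8 and NDE1 passed in no strain, the remaining 8 passed in some strains and in 1 direction, and no member was called in opposite directions. These patterns over the 4 strains were not counted over all genes, so they do not set the members apart from them. Each strain was compared with its own 0 min arrays, so the 4 changes share no group means. The fit estimated the spread from all arrays together, so the 4 tests are not independent. Deviations from group means were also correlated between same-numbered arrays of different strains. The correlations were 0.03 to 0.65 at 20 min and -0.10 to 0.27 at 0 min. With scaling on spiked-in controls the calls were 5 higher and 10 lower in the double deletion, 6 and 4 in the pbf2 deletion, and 5 and 13 in the pbf1 deletion. The shares of all genes called on that scaling are not given here.

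Among the 7 roles with several genes, cytochrome c and CYB2 had the largest and complex IV the smallest median change in each strain on the deposited scaling. The former median is the value of CYB2 alone, since CYC1 fell and CYC7 rose more in each strain. Cytochrome c and CYB2 had median changes of 3.37 in the double, 3.55 in the pbf2 and 3.24 in the pbf1 deletion, against 2.95 in the wild type. Complex IV had 0.21, 0.18 and 0.01, against 0.23, and the ATP synthase 0.41, 0.37 and 0.46, against 0.40. Complex II had 0.82 in the double deletion, 1.14 in each single deletion and 1.22 in the wild type, and the TCA cycle 0.73, 0.59 and 0.83, against 0.90. Complex III lay between 0.88 and 0.99 and the NADH dehydrogenases between 1.11 and 1.45 in the 4 strains. The complex IV median turned negative in all 3 deletions on median scaling (-0.05, -0.02 and -0.20 in the double, pbf2 and pbf1 deletions), and on scaling to spiked-in controls so did the ATP synthase in each deletion (-0.51, -0.31 and -0.58), the TCA cycle in each (-0.19, -0.09 and -0.21), complex III in the double (-0.04) and pbf1 (-0.09) deletions, and complex II in the double deletion (-0.10).

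**Figure D3:**
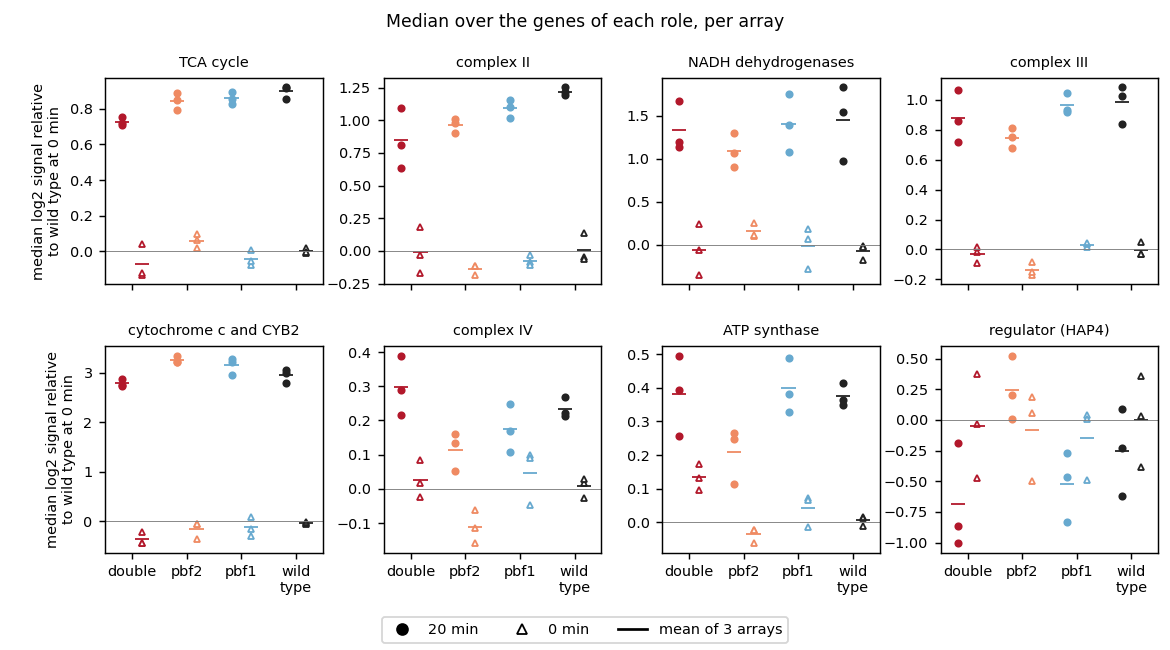
Median over the genes of each role of the log2 signal relative to the wild type at 0 min, with a panel per role, circles for arrays at 20 min, triangles for arrays at 0 min and a bar at the mean of 3 arrays. At 20 min the complex II arrays of the double deletion lie between 0.64 and 1.10, all below the wild type arrays at 1.19 to 1.25, on the deposited scaling, where spiked-in controls turn the change of complex II in the double deletion negative.

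CYC7 had the largest change in each strain. It had signals of 1875, 2152 and 2747 at 20 min and 59.0, 67.7 and 118 at 0 min in the double deletion, a change of 4.84, and changed by 4.28 in the pbf2 and 4.70 in the pbf1 deletion. NDE2 changed by 3.19, 3.62 and 3.71 in the double, pbf2 and pbf1 deletions, from 0 min signals that were close to background in the double deletion. CIT3 changed by 2.12, 2.91 and 2.50. CYC1 fell in each deletion (-0.69, -0.47 and -0.81 in the double, pbf2 and pbf1 deletions), with the 20 min arrays below the 0 min arrays. All these passed at a limma adjusted p of 5.38e-05 or lower. CIT1 changed by 1.89, 1.80 and 1.94, close to its wild type value of 1.89. NDE1 did not pass in any strain (-0.14, -0.07 and -0.07, lowest limma adjusted p = 0.152), nor did COX8.

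Some members passed in deletions alone, which is not by itself a difference between strains. ATP20, the membrane sector subunit known for dimers of the synthase, fell in the double (-0.67), pbf2 (-0.42) and pbf1 (-0.52) deletions, and ATP1 fell in the double deletion (-0.28, limma adjusted p = 5.21e-05). COX12 rose in the double (0.15) and pbf2 (0.18) deletions, and COX4 fell in the pbf1 deletion (-0.18, limma adjusted p = 0.0371). HAP4 was called lower in the double deletion (-0.64 ± 0.26, limma adjusted p = 0.0285), with signals of 597, 374 and 340.2 at 20 min, against 492, 665 and 882 at 0 min, which overlap. This call was lost without replicate 2 or replicate 3 at either time, with adjusted p up to 0.158 and a change nearest 0 of -0.43. HAP4 did not pass in the pbf2 (0.33, limma adjusted p = 0.248) or pbf1 (-0.38, limma adjusted p = 0.184) deletion.

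The difference in response, the heat shock change in a deletion minus that in the wild type, was tested as an interaction contrast. The 3 deletions share the wild type arrays in these contrasts and in the strain differences at each time. In the double deletion no member was called higher and 3 were called lower, SDH1, LSC1 and ATP1, where 15% of all genes were called higher and 12.8% lower. On quantile normalization the split was 3 higher and 4 lower, and the share of all genes called on it is not given here. SDH1 (YKL148C) had signals of 751, 914 and 1132 at 20 min and 465, 514 and 600.2 at 0 min in the double deletion, against 1271, 1319 and 1434 at 20 min and 520.01, 484 and 565 at 0 min in the wild type. The strains overlapped at 0 min and not at 20 min, and the difference in response was -0.55 ± 0.16 (limma adjusted p = 0.0156). LSC1 had signals of 1281, 1208 and 1234 at 20 min and 2062, 2089 and 2149.8 at 0 min in the double deletion, and its difference in response was -0.52 ± 0.10 (limma adjusted p = 0.000571). It was below the wild type at both times, and further below at 20 min. ATP1 (YBL099W) had signals of 4926, 5102 and 4905 at 20 min and 5845, 5855 and 6405 at 0 min in the double deletion, against 5788, 5789 and 5809 at 20 min and 6023, 5843 and 6095 at 0 min in the wild type. Its difference in response was -0.23 ± 0.07 (limma adjusted p = 0.0227). Without 1 array the adjusted p reached 0.0517 for SDH1 and 0.0595 for ATP1. The count of 3 became 7 without replicate 3 of the double deletion at 20 min, 6 without replicate 3 of the wild type at 20 min, and 5 without replicate 1 of the double deletion at 0 min.

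By role, all 4 genes of complex II had a smaller change in the double deletion, with differences in response of -0.55 to -0.17 and a median of -0.31, of which SDH1 passed. The TCA cycle had a median of -0.16, with 9 of 10 genes below 0. Complex III (-0.03), complex IV (0.00) and the ATP synthase (0.02) lay near the median of all genes (-0.00), and cytochrome c and CYB2 had a median of 0.37. In the pbf2 deletion, IDH2 (-0.45, limma adjusted p = 0.0357) was called and no other member, where 1.71% of all genes were called in either direction. IDH2 (YOR136W) had signals of 8584, 9333 and 9136 at 20 min and 5244, 5773 and 6086 at 0 min in the pbf2 deletion, against 9627, 9474 and 9449 at 20 min and 4403, 4879 and 3998 at 0 min in the wild type. The groups did not overlap at either time, with IDH2 higher in the pbf2 deletion at 0 min and lower at 20 min. The call was lost without any of 9 of the 12 arrays compared, with adjusted p up to 0.114, and it was lost under each other scaling. In the pbf1 deletion limma called 0 members and 0% of all genes, with 183 genes, and 0 of the members, at an unadjusted p under 0.05. The members' differences in response ranged from -0.28 for QCR9 to 0.35 for NDE2 there.

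At 0 min, before the heat shock, the double deletion differed from the wild type in 14 members. Of these, 8 were higher, where 8.47% of all genes were called higher, and 6 were lower, where 16% were called lower. NDE2 had signals of 11.2, 15.8 and 14.99 in the double deletion, against 23.9, 36.7 and 22.6 in the wild type, a log2 difference of -0.97 ± 0.28 (limma adjusted p = 0.0154). Its signals in the double deletion were close to the backgrounds of those arrays, 9.67, 10.5 and 11.6, which limits the size given for this difference. CYC7 had signals of 59.0, 67.7 and 118 in the double deletion, against 93.8, 125 and 218 in the wild type. NDE2 did not overlap between the strains, and CYC7 did, with a difference of -0.82 ± 0.28 (limma adjusted p = 0.0367). CYB2 had signals of 17.5, 17.6 and 12.8 in the double deletion, against 25.0, 23.3 and 23.04 in the wild type (-0.59 ± 0.17, limma adjusted p = 0.0152). The 12.8 of replicate 3 was likewise close to the background of its array, 11.6. LSC2 had signals of 320.1, 372 and 478 in the double deletion, against 541, 592 and 574 in the wild type (-0.57 ± 0.13, limma adjusted p = 0.00309). The remaining lower members were CYT1 (-0.33) and LSC1 (-0.29), so that the lower calls fell in the TCA cycle, the NADH dehydrogenases, complex III, and cytochrome c and CYB2.

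The higher members at 0 min were led by QCR2 (YPR191W), a core subunit gene of complex III. It had signals of 1344, 1459 and 1408 in the double deletion, against 1016, 963 and 966 in the wild type (0.52 ± 0.08, limma adjusted p = 0.000103). ATP17 had signals of 1613, 1849 and 1466 in the double deletion, against 1292, 1308 and 1174 in the wild type (0.38 ± 0.12, limma adjusted p = 0.0304). Neither gene overlapped between the strains. QCR9 (0.38), COX13 (0.37), NDE1 (0.30), ATP7 (0.25), ATP3 (0.20) and ATP16 (0.16) were also higher. In the ATP synthase 4 genes were called higher and none lower, where 8.47% and 16% of all genes were. Of its 11 genes 9 had a positive difference, with a median of 0.15. Scaling changed the split at 0 min, which was 4 higher and 2 lower on quantile normalization, 10 and 5 on median scaling and 4 and 0 on hybridisation controls. No member passed on spiked-in controls, and the shares of all genes called on these scalings are not given here. The count of 14 became 7 without replicate 1 of the double deletion, 8 without replicate 2 of either strain and 9 without replicate 3 of the wild type. Without 1 array, NDE2 (adjusted p up to 0.0915), CYC7 (0.242), CYB2 (0.0774) and ATP17 (0.144) lost their calls.

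At 20 min the double deletion was lower than the wild type in 12 members, where 32.4% of all genes were called lower, and higher in 7, where 20.9% were called higher. The median difference was -0.09, the same as over all genes, but the roles differed. In the TCA cycle 5 of 10 genes were called lower, none was called higher and none had a positive difference, and in complex II 3 of 4 were called lower. The ATP synthase had 4 genes called higher and 1 lower, and complex III had 2 of each. With scaling on hybridisation controls 5 members were higher and 6 lower, and on spiked-in controls none passed. The shares of all genes called on these scalings are not given here.

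The largest differences at 20 min were again in several roles. NDE2 had signals of 147, 119 and 116 in the double deletion, against 331, 304 and 210.03 in the wild type (-1.13 ± 0.28, limma adjusted p = 0.00191). LSC1 had signals of 1281, 1208 and 1234 in the double deletion, against 2569, 2052 and 1986 in the wild type (-0.82 ± 0.07, limma adjusted p = 6.76e-09). CYT1 (YOR065W), cytochrome c1, had signals of 603, 662 and 703 in the double deletion, against 989, 961 and 1073 in the wild type (-0.62 ± 0.09, limma adjusted p = 4.87e-06). All 3 genes were lower in the double deletion with no overlap. COX13 (YGL191W), a complex IV subunit gene, had signals of 3762, 3764 and 3882 in the double deletion, against 2478, 2237 and 2821 in the wild type (0.60 ± 0.08, limma adjusted p = 2.94e-06). SDH1, with the signals given above, differed by -0.54 ± 0.12 (limma adjusted p = 0.000496). IDH1 (YNL037C) had signals of 5106, 4511 and 4442 in the double deletion, against 6959.6, 6440.2 and 6473 in the wild type (-0.50 ± 0.09, limma adjusted p = 5.33e-05). COX13 was thus higher and SDH1 and IDH1 lower, each without overlap. The other lower members were SDH2 (-0.46), LSC2 (-0.32), SDH4 (-0.31), ACO1 (-0.30), QCR6 (-0.27), ATP1 (-0.22) and IDH2 (-0.19). The other higher members were QCR2 (0.42), ATP16 (0.37), ATP3 (0.31), ATP7 (0.27), QCR9 (0.26) and ATP5 (0.18).

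**Figure D4:**
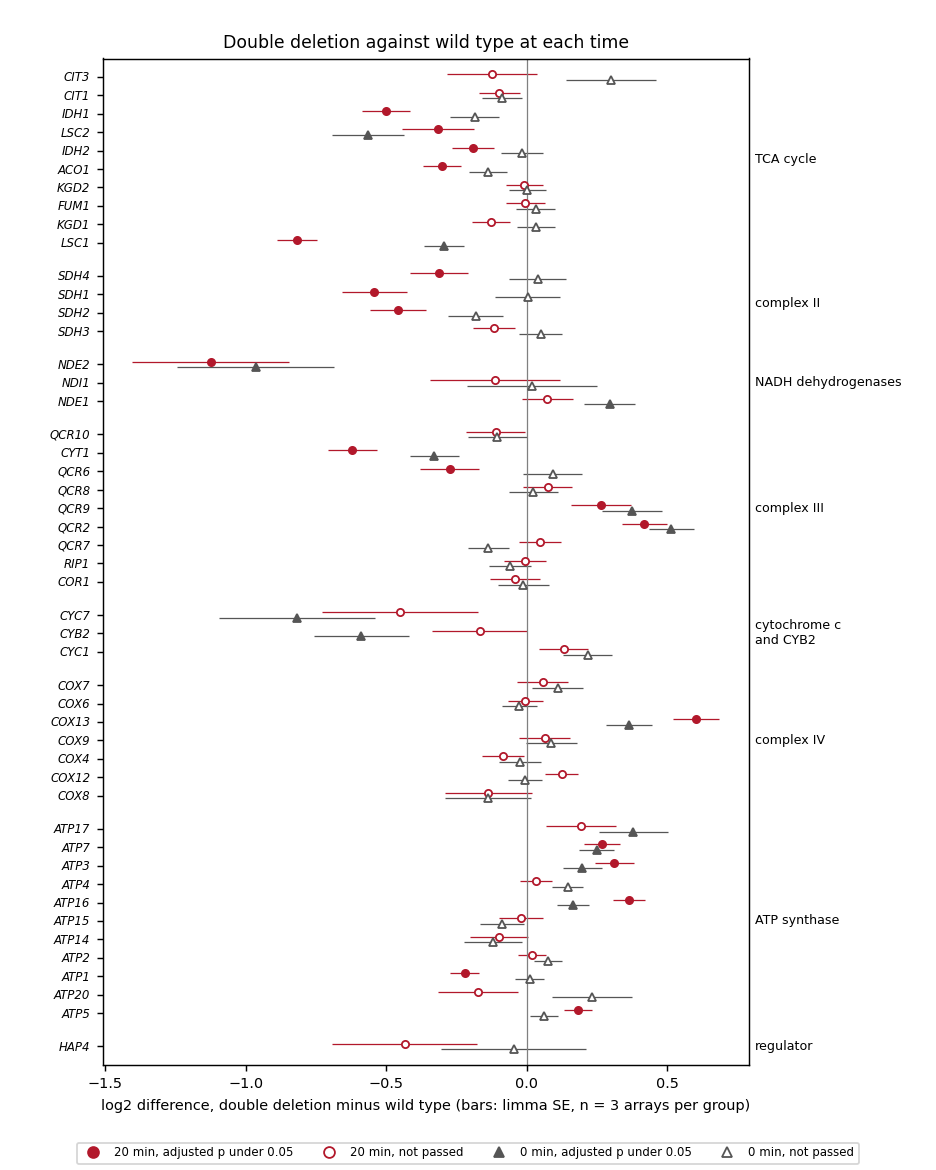
Log2 difference between the double deletion and the wild type on the horizontal axis for each of the 48 genes, which run down the page by role, with circles at 20 min, triangles at 0 min, filled symbols for an adjusted p under 0.05 and bars for the standard error of limma (n = 3 arrays per group). NDE2 lies farthest to the left at both times (-1.13 at 20 min and -0.97 at 0 min), COX13 and QCR2 lie farthest to the right, and SDH1 and LSC1 lie further left at 20 min. The 0 min signals of NDE2 in the double deletion were close to background.

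The single deletions differed less from the wild type. At 0 min the pbf1 deletion had 0 members called (lowest limma adjusted p = 0.576, with 3 members at an unadjusted p under 0.05), where 0.111% of all genes were called in either direction. The pbf2 deletion had IDH2 higher (0.37 ± 0.07, limma adjusted p = 0.0372), where 0.241% were called in either direction, and without 1 array its adjusted p reached 0.37. At 20 min the pbf1 deletion had 0 members called (lowest limma adjusted p = 0.144, for SDH2, with 8 members at an unadjusted p under 0.05), where 0.63% of all genes were called in either direction. With the replicate number as a block, SDH2 was called lower there (-0.34, limma adjusted p = 0.0457).

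In the pbf2 deletion at 20 min, 6 members were lower than in the wild type, where 4.62% of all genes were called lower, and none was higher, where 8.64% were called higher. QCR6, a small subunit of complex III, had signals of 2109, 2133 and 2013 in the pbf2 deletion, against 2557, 2763 and 2941 in the wild type (-0.40 ± 0.11, limma adjusted p = 0.0154). QCR7, of the same complex, had signals of 3375, 3351 and 3346 in the pbf2 deletion, against 3656, 4199 and 4674 in the wild type (-0.31 ± 0.07, limma adjusted p = 0.00903). COX9, a complex IV subunit gene, had signals of 1426, 1507 and 1537 in the pbf2 deletion, against 1877, 1806 and 1820.5 in the wild type (-0.30 ± 0.09, limma adjusted p = 0.0313). None of these overlapped, and COX6 (-0.25), ATP7 (-0.22) and ATP2 (-0.19) were also lower. The 48 members had a median difference of -0.13, against -0.01 over all genes, and 8 of them had a positive difference, with none among the genes of complexes II and III and the ATP synthase. Same-numbered 20 min arrays of these strains had correlated deviations from their group means (0.21 to 0.46), and the labels do not say what a number shares. The main fit that gave the 6 calls did not use the number. With the number as a block over both times 12 members were lower and none higher, the further ones being COX4, CYT1, NDI1, QCR8, SDH1 and SDH4. With the number as a block within each time, an alternative chosen after seeing the data, 17 members were lower, and HAP4 (0.50) and COX13 (0.22) were higher. On hybridisation controls none passed. The shares of all genes called with the blocks and on that scaling are not given here. The 3′ over 5′ log2 ratio of the RIP1 control probe sets also differed between these groups, at 0.24 to 0.32 in the pbf2 deletion and 0.04 to 0.21 in the wild type, and its part in the lower calls was not tested. The count of 6 became 10 without replicate 1 of the wild type, 2 without replicate 3 of the wild type, and 1 without replicate 3 of the pbf2 deletion.

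Genes that act beside these 48 were followed as lists of other members of the pathway, in a comparison where 51% of all genes were called higher and 29.7% lower. Their calls are on the deposited scaling, and those on other scalings are not given here. Of 33 assembly factors of the respiratory complexes, 31 rose in the wild type and none fell, from CBP3 (0.16) to SDH6 (2.79), with a median of 0.77. Of 9 genes of ubiquinone synthesis, 8 rose, between COQ8 (0.30) and COQ4 (1.81). A list of 12 further subunits and isoforms had 9 higher and none lower, among them STF1 (3.33) and INH1 (2.91), inhibitors of the ATP synthase. COX5B, the isoform of complex IV subunit V known for low oxygen, had signals of 2825, 2703 and 2583 in the wild type at 20 min, against 440.2, 457 and 525 at 0 min. COX5A, the isoform known for aerobic growth, changed by -0.05 and did not pass. The 12 other TCA cycle and shunt enzymes were divided, with 5 higher and 4 lower, from the malic enzyme gene MAE1 (-1.90) to the pyruvate carboxylase gene PYC1 (2.17). The 16 carriers and porin had 7 higher and 6 lower, from the oxaloacetate carrier gene OAC1 (-1.74) to the succinate-fumarate carrier gene SFC1 (2.61), which was above background on 12 arrays.

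Of 16 regulators of respiratory genes, 10 were called higher and 1 lower in the wild type, where 51% of all genes were called higher and 29.7% lower. The activators ADR1 (3.02) and CAT8 (2.91), known for growth without glucose, rose most. RTG1 (1.37), the glucose repressor MIG1 (0.91), HAP5 (0.89), MKS1 (0.56), HAP2 (0.47), RTG2 (0.46), RTG3 (0.44) and HAP1 (0.34) rose as well, and the hexokinase gene HXK2 fell (-0.28). HAP3 changed by 0.01 and did not pass. The HAP complex genes thus differed in their changes, with HAP2 and HAP5 called higher and HAP3 and HAP4 not called.

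In the double deletion 5 of 16 regulators differed in response from the wild type, 3 higher and 2 lower, where 15% of all genes were called higher and 12.8% lower. CAT8 had signals of 84.5, 73.7 and 82.7 in the double deletion at 20 min, against 179.9, 173 and 174 in the wild type, and its difference in response was -1.09 (limma adjusted p = 0.000708). MIG1 had signals of 372, 330.1 and 396 at 20 min and 329, 403 and 359.9 at 0 min in the double deletion, against 728, 541 and 685 at 20 min and 351, 328 and 355 at 0 min in the wild type. It overlapped between the times in the double deletion and not in the wild type, and its difference in response was -0.90 (limma adjusted p = 0.000277). HAP3 (0.44), HXK2 (0.46) and ABF1 (0.46) differed in the other direction. At 0 min RTG3 was the one regulator called in the double deletion (-0.32). At 20 min CAT8 (-1.13), MIG1 (-0.83), RTG3 (-0.49) and SNF1 (-0.16) were lower and HAP3 (0.52), HXK2 (0.29) and ABF1 (0.29) higher in the double deletion, and in the pbf2 deletion RTG3 (-0.41) and MIG1 (-0.36) were lower. The assembly factors were lower in the double deletion in 20 of 33 genes at 0 min, where 16% of all genes were called lower, and in 21 of 33 at 20 min, where 32.4% were. They had median differences of -0.28 and -0.34, against -0.05 and -0.09 over all genes. Calls of the assembly factors and regulators on other scalings are not given here. On spiked-in controls no member passed between these strains at either time.

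Within groups, HAP4 and NDI1 varied with the replicate number in all 4 strains. HAP4 at 20 min had 597, 374 and 340.2 in replicates 1, 2 and 3 of the double deletion, 981, 787 and 686 in the pbf2 deletion, 566, 493 and 382 in the pbf1 deletion, and 724, 582 and 445 in the wild type. At 0 min it had 492, 665 and 882 in the double deletion, 482, 710.5 and 778 in the pbf2 deletion, 484, 701 and 686 in the pbf1 deletion, and 522, 696 and 872 in the wild type. Replicate 1 was the highest at 20 min and the lowest at 0 min in each strain. Replicate 1 minus replicate 3, averaged over the strains, was 0.65 at 20 min and -0.69 at 0 min on the log2 scale. For NDI1 replicate 1 was the lowest and replicate 3 the highest in each of the 8 groups, and replicate 1 minus replicate 3 averaged -0.62 at 20 min and -0.58 at 0 min. The labels do not say what a number shares between strains. Among the members, 13 had replicates 1 and 3 in the same order in all 4 strains at 20 min (27.1%, against 37.7% of all genes), and 13 did at 0 min (27.1%, against 36.7%). For replicates 1 and 2 the shares were 29.2% of the members and 34.1% of all genes at 20 min, and 18.8% and 22.1% at 0 min. For replicates 2 and 3 they were 20.8% and 28.8% at 20 min, and 25% and 22.9% at 0 min. The number as a block within each time was an alternative chosen after seeing the data. With it, HAP4 at 20 min was higher in the pbf2 deletion (0.50, limma adjusted p = 0.000223) than in the wild type. It was lower in the double deletion (-0.43, limma adjusted p = 0.000184). Neither the fit without a block nor the block over both times made these calls.

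**Figure D5:**
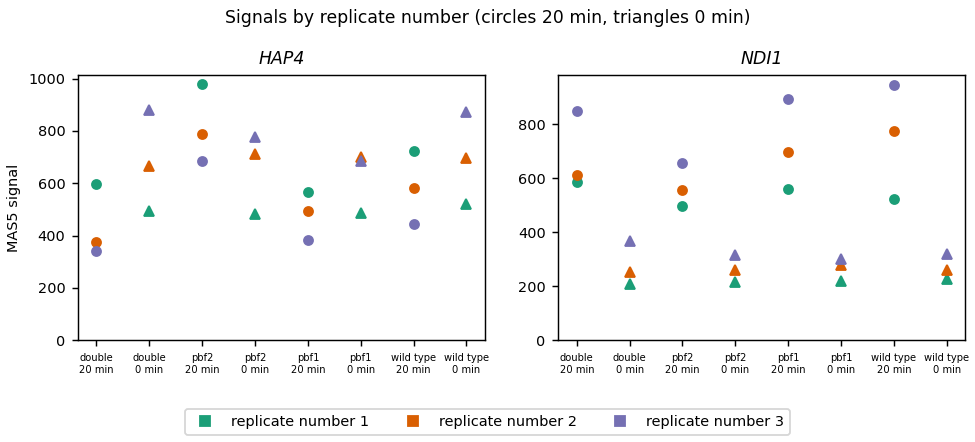
MAS5 signal of HAP4 and NDI1 on linear axes from 0, for each strain at 20 min (circles) and 0 min (triangles), coloured by replicate number. Replicate 1 of HAP4 is the highest at 20 min and the lowest at 0 min in each strain, and replicate 3 of NDI1 is the highest in each of the 8 groups.

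All 48 members were in the authors' deposited table, whose ratios of 20 min over 0 min were made by another method from the same arrays. The members' median ratio on the log2 scale in the authors' deposited table was 0.83 in the double deletion, 0.78 in the pbf2 deletion, 0.80 in the pbf1 deletion and 0.75 in the wild type, against 0.03, 0.03, 0.05 and 0.05 over all genes. With the false discovery rate of the authors' deposited table held to 0.0001 or less, 34 members were higher and 1 was lower in the wild type, a rate that 54.67% of all genes met. ATP1 had a ratio of 0.26 with a rate of 0.0103 in the authors' deposited table, whereas the fit to the signals gave -0.05. HAP4 had -0.40 with a rate of 0.0467 in the wild type and -0.87 in the double deletion in the authors' deposited table.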

How the data were processed

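RNA was measured on 24 arrays, 3 in each of 8 groups of strain and time, from 5 ug of total RNA each per the labels' protocols. Each culture was divided between 0 and 20 min. The deposited signals are linear intensity values. Per the submitters' processing notes, the authors used MAS5, and GeneChip Operating Software 1.4 is named there too. The trimmed mean (2% on each side) of the 10928 probe sets was 500.3 to 500.4 on each array. The authors' deposited table holds log2 ratios of 20 min over 0 min and, per the file headers, false discovery rates, which are adjusted p-values. Its wild type rate alone was used, since the 3 deletions' columns share 1 name.

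Of the probe sets, 7244 carry 1 name, 1 several and 3683 none, and 5498 name an S. cerevisiae gene of the R64 table, which was used for names and updated 12 symbols. For 47 genes with several probe sets the one with the highest mean was taken. Genes entered the tests with a mean log2 signal above 2.35, a signal of 5.09 and the 90th percentile of 1746 probe sets named for genes outside that table, which left out 54 genes. The 95th percentile of those probe sets, 9.02 to 11.6 per array, was the background. No genome was used here, and no coordinates are given.

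Log2 signals, with no pseudocount added, were fitted as 8 group means over all arrays with limma 3.58.1 in R 4.3.3 (eBayes with trend, on 16 residual degrees of freedom). Two-sided p-values were adjusted within a comparison, over its 5395 genes, by Benjamini-Hochberg, and 0.05 was the threshold. The fitting step was tested on simulated data. Tables were prepared with Python 3.11.15, pandas 2.3.3, numpy 2.4.6 and scipy 1.17.1, and plots with matplotlib 3.10.9.

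Replicate numbers were checked by the correlation of deviations from group means. Of the 12 pairs of 20 min and 0 min arrays with the same strain and number, 3 exceeded 0.1 (range -0.04 to 0.19). These correlations do not settle whether a number marks the parts of one culture, and the labels do not say. The main tests left those arrays unpaired, and the replicate block over cultures is the paired alternative for heat shock and response. Across strains at 20 min, the 3 pairs of the pbf1 deletion with the wild type (0.27 to 0.65) all exceeded 0.1. So did the 3 of the pbf2 deletion with the wild type (0.21 to 0.46). Both were counted as pairs on these correlations alone, since the labels do not say what a number shares between strains. The 3 of the double deletion with the wild type ranged from 0.03 to 0.37. At 0 min, 6 of the 9 pairs with the wild type exceeded 0.1, with the lowest at -0.03. The main tests did not use the number, and the block alternatives did. Alternatives were quantile, median, hybridisation control and spiked-in control scaling, a pseudocount of 16, no filter, no trend, only the groups compared, the replicate block and leaving out each array.

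The members and lists were chosen with earlier results of these data known. Full statistics are given for HAP4, the isoform pairs of CIT, NDE and CYC, the highest and lowest member of each role in the wild type heat shock, and the 6 largest calls of the double deletion (3 in single deletions) per comparison. Of the other lists, the highest and lowest called gene in the wild type and each called regulator are named. COX5A, COX5B, STF1, INH1, LSC2 in heat shock, the members with lost calls and the genes lost or gained under a block were named after their values were seen.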

Additional observations from a re-analysis of the deposited data

Results flagged for a closer look

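These results differed between strains under the same contrast, by the interaction term of limma with adjustment over all genes, as the heat shock change in a deletion minus that in the wild type. In the double deletion the members were LSC1 (-0.52), SDH1 (-0.55) and ATP1 (-0.23), and the regulators were CAT8 (-1.09), MIG1 (-0.90), HAP3 (0.44), HXK2 (0.46) and ABF1 (0.46). In the pbf2 deletion it was IDH2 (-0.45). With 3 arrays a group, no group was tested for an array far from the others.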

How the results depend on the processing

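No called heat shock change of a member with full statistics reversed on another setting, apart from scaling on controls. Called members under spiked-in control scaling were 15 in the double deletion, 10 in the pbf2 deletion, 18 in the pbf1 deletion and 11 in the wild type, where COR1 reversed in the double (-0.64), pbf2 (-0.29) and pbf1 (-0.66) deletions and the wild type (-0.43), SDH3 in the double (-0.0910) and pbf1 (-0.0664) deletions, ATP17 in the double (-0.22), pbf2 (-0.00818) and pbf1 (-0.16) deletions and COX7 in the pbf1 deletion (-0.0209). On hybridisation controls COR1 reversed in the double deletion (-0.0251). The response difference of the double deletion had 7 calls on quantile and on median scaling, 1 on hybridisation controls, 0 on spiked-in controls, 6 with the replicate block over cultures and 9 with the number as a block within each time, an alternative chosen after seeing the data. That of the pbf2 deletion had 0 on each other scaling, without the trend, with only the groups compared and with the culture block, and 3 within each time. At 0 min the double deletion had 6 on quantile scaling, 4 on hybridisation and 0 on spiked-in controls, and the pbf2 deletion 0 on each other scaling, without the trend and with only the groups compared. At 20 min the double deletion had 11 on hybridisation and 0 on spiked-in controls. The pbf2 deletion had 12 on quantile and 13 on median scaling, 0 on both controls, 3 with only the groups compared, 12 with the replicate block and 19 within each time, and the pbf1 deletion 1 with either block. Leaving out 1 array gave 42 to 45 heat shock calls in the double deletion, 39 to 41 in each single deletion and 40 to 42 in the wild type. It gave 2 to 7 response differences in the double deletion, 0 to 2 in the pbf2 deletion and 0 in the pbf1 deletion. At 0 min the ranges were 7 to 14, 0 to 2 and 0, and at 20 min 15 to 18, 1 to 10 and 0, in the double, pbf2 and pbf1 deletions. The shares of all genes called on these settings are not given here, so the shifts do not set the members apart from them. The cause of these shifts was not tested.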
